A study of Mus musculus with 15 samples.

Results

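The RNA-binding protein genes Ewsr1 and Taf15, both members of the FET family, were described in CD8+ T cells primed in vivo with antigen alone or with antigen and costimulation. The members were chosen by symbol and matched to GENCODE release M21, which gave 2 genes of the 55536 in the annotated gene table, 18 annotated transcripts, and 41 of the 138940 events in the splicing table. The series holds 15 libraries in 3 groups of 5, from antigen-primed (Ag), costimulated (Ag+Costim) and naive cells, and counts of the 10 primed libraries were used here. In both primed groups, T cells of OT-I transgenic mice had been transferred into C57BL/6J recipients that kept their own lymphocytes. The donors lacked Rag1 or Rag2 on a C57BL/6J background, and their T cell receptor recognises an ovalbumin peptide. Ag recipients received the peptide with control IgG, and Ag+Costim recipients received it with agonist antibodies against the receptors OX40 (CD134) and 41BB (CD137). The labels give day 4 for collection of spleen and lymph node cells. The study's methods give a slightly shorter time. By these methods, the transferred cells were sorted by CD8, a surface marker of the donor cells and the OT-I receptor chains. The study used mice of both sexes over a range of ages that is not given per sample. The libraries of a group are described as separate mice, and p-values measure the spread between libraries. Naive counts were not analysed here.

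FET proteins are abundant nuclear proteins that carry a low-complexity domain rich in serine, tyrosine, glycine and glutamine, an RNA recognition motif, arginine- and glycine-rich repeats, a zinc finger and a nuclear localization signal at the C terminus. They bind nascent RNA and the C-terminal domain of RNA polymerase II, associate with the U1 snRNP that recognises 5' splice sites, enter the nucleus through transportin, and are methylated at arginines by Prmt1. Ewsr1 is best known as the gene broken in Ewing sarcoma, and Taf15 was first described as a factor associated with the TFIID complex, which places RNA polymerase II at promoters.

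The Ag libraries held 59.6 to 449.4 M (mega) estimated counts each and the costimulated ones 332.3 to 639.1 M. These totals are derived from coverage and are not numbers of reads. The Ag libraries differed among themselves. The summed CPM (counts scaled to a common library total with TMM factors) of 16 cell cycle genes was 1102 and 1165 in Ag 1 and Ag 4, between 5582 and 10174 in the other Ag libraries, and between 8948 and 11337 after costimulation. The summed CPM of 6 B cell markers was 132 in Ag 1, 341 in Ag 3 and 185 in Ag 4, against 33.1 and 40.1 in Ag 2 and Ag 5 and 30.4 to 50.5 in Ag+Costim. All 8 CD8 T cell markers passed the filter on low counts and summed to between 4485 and 8636 CPM in every library. The 6 erythroid genes summed to 1100 CPM in Ag 3 and to at most 125 CPM elsewhere. The 7 myeloid markers summed to 38.4 to 129 CPM in Ag and to 67.0 to 157 CPM in Ag+Costim, with means of 65.6 and 98.2 CPM. The 4 CD4 T cell markers summed to 3.73 to 26.3 CPM in Ag and to 3.15 to 8.18 CPM in Ag+Costim. Between 40441 and 51778 genes had a count in Ag 1, Ag 3 and Ag 4, against 20714 to 30340 in the other libraries. The part of these differences in the results below was not tested, and each result is given by library. In bulk RNA, fewer cells of a type and less RNA per cell cannot be told apart.

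Ewsr1 was strongly expressed in both groups and was 1.56-fold higher in Ag+Costim by TMM-scaled CPM, a difference that did not pass the test across all genes. Ewsr1 (ENSMUSG00000009079.16) lies on the minus strand at chr11:5069689-5099266 (mm10). Its CPM was 296, 695, 481, 385 and 787 in Ag 1 to 5 (529 ± 207, SD, n = 5). It was 763, 779, 851, 878 and 866 in Ag+Costim 1 to 5 (827 ± 52.5, SD, n = 5). Ag 1 and Ag 4, the libraries with little cell cycle RNA, were the lowest, and Ag 5 reached into the costimulated range, so the groups overlapped. The fitted log2 fold change was 0.65 with an SE of 0.25 and a BH-adjusted p of 0.257 (edgeR quasi-likelihood test). Per transcript length, Ewsr1 stood at 351 ± 44.2 TPM (length-scaled transcript abundance) without and 513 ± 33.6 TPM with costimulation (SD, n = 5 each). On this scale the groups did not overlap, with Ag between 281 and 395 TPM and Ag+Costim between 474 and 560 TPM, and the ratio of means was 1.46. Counts scaled to the library total also did not overlap, whereas DESeq2 size factors and upper quartile factors left an overlap. For TPM and total counts, the share of all genes without overlap was not counted. By mean TPM, Ewsr1 ranked 386 among the 24262 genes tested.

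Taf15 was expressed at a moderate level and was 2.22-fold higher in Ag+Costim by CPM, without overlap between the libraries. Taf15 (ENSMUSG00000020680.15) lies on the plus strand of the same chromosome at chr11:83473086-83506743 (mm10). Its CPM was 3.29, 5.90, 5.65, 5.14 and 2.92 in Ag 1 to 5 (4.58 ± 1.38, SD, n = 5). It was 10.4, 9.29, 11.2, 10.1 and 9.83 in Ag+Costim 1 to 5 (10.2 ± 0.709, SD, n = 5). Ag 1 and Ag 5 were the lowest, so the order of the Ag libraries was not that of Ewsr1. Of all genes tested, 4.48% had a higher CPM in Ag+Costim without overlap. Under total counts, DESeq2 size factors and upper quartile factors, Taf15 also did not overlap. The log2 fold change was 1.15 with an SE of 0.22, an unadjusted p of 3.24e-04 and a BH-adjusted p of 0.134 (edgeR), which ranked 58 by p. Per length, Taf15 stood at 5.33 ± 2.07 TPM without and 8.07 ± 0.409 TPM with costimulation (SD, n = 5 each), a 1.51-fold ratio, and the highest Ag library at 7.43 TPM lay close to the lowest costimulated library at 7.68 TPM. By mean TPM, Taf15 ranked 8811 among the 24262 genes tested. A short noncoding transcript, described below, has more weight on this scale.

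**Figure D1:**
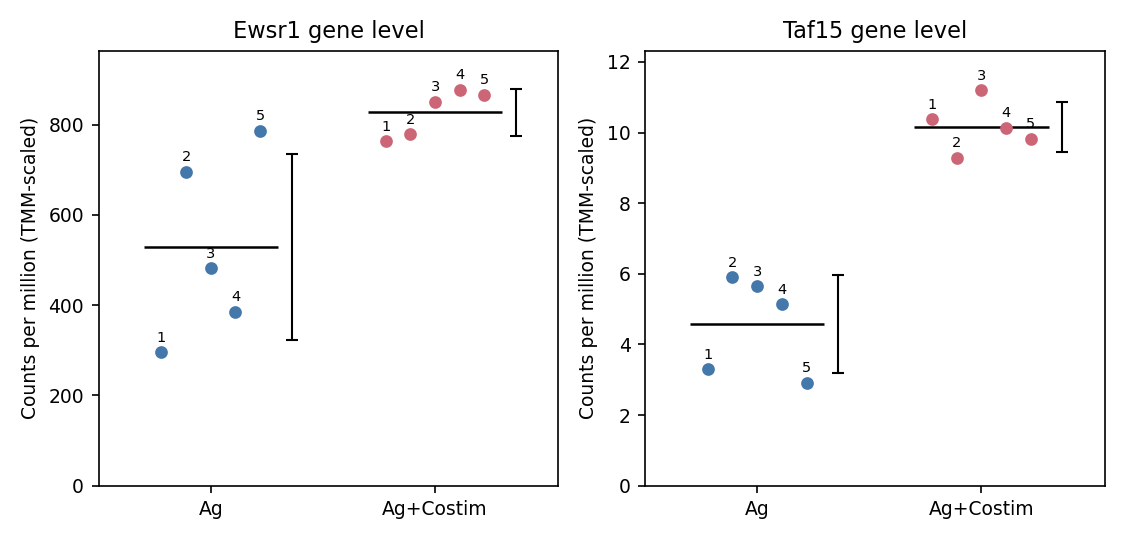
TMM-scaled CPM of Ewsr1 and Taf15 (y axes, linear from 0) in the 5 Ag and 5 Ag+Costim libraries, with the replicate number beside each point, a line at the group mean and a bar of ± 1 SD. Ewsr1 spans 296 to 787 in Ag and 763 to 878 in Ag+Costim, and Taf15 spans 2.92 to 5.90 and 9.29 to 11.2.

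The call for either gene depended on the tool. edgeR called 0% of genes as higher in Ag+Costim at a BH of 0.05, with 0 of 24262 called in either direction, although 4501 had an unadjusted p under 0.05, and the higher ones among them were 7.89% of genes. Both members were among these. DESeq2 called 2933 genes, 3.46% of its tested genes as higher in Ag+Costim, and called Taf15 with a log2 fold change of 1.01 and a BH of 0.00163 but not Ewsr1, with 0.54 and a BH of 0.0683. limma voom with a weight per library called 12311 genes, 25.3% of genes as higher. It gave Ewsr1 a log2 fold change of 1.15 and a BH of 4.13e-05 and Taf15 1.24 and 1.51e-04. In that fit, Ag 2 and Ag 5 had weights of 0.0985 and 0.0654, the lowest of the 10 libraries. limma voom without these weights called 0 genes, with 3801 at an unadjusted p under 0.05 and a BH of 0.204 for Ewsr1 and 0.0933 for Taf15. The members differed when Ag 1, Ag 3 and Ag 4, the libraries with most B cell marker RNA, were left out, a choice made after the data had been seen. With Ag 2 and Ag 5 against the 5 costimulated libraries, Ewsr1 had a log2 fold change of 0.19, an SE of 0.08 and a BH of 0.166 (edgeR). Taf15 had a log2 fold change of 1.22, an SE of 0.27 and a BH of 0.0299 in the same fit, where 7.51% of genes were called as higher. The median log2 fold change of the 8620 genes at 10 CPM or more was 0.24. Ewsr1 stood above it by 0.41, and Taf15, whose own mean level was below 10 CPM, by 0.91. With total counts, that median was 0.01 and the members stood above it by 0.45 and 0.86.

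Ewsr1 had far more RNA than Taf15 in every library. Per length, Ewsr1 was 48.4 to 174 times Taf15 with antigen alone and 57.2 to 69.9 times with costimulation. A ratio within a library does not depend on the scaling between libraries. The log2 ratio of Ewsr1 to Taf15 counts was 6.49, 6.88, 6.41, 6.23 and 8.07 in Ag 1 to 5 (6.82 ± 0.742, SD, n = 5). It was 6.20, 6.39, 6.25, 6.44 and 6.46 in Ag+Costim 1 to 5 (6.35 ± 0.117, SD, n = 5). The ratio lay in a narrow range after costimulation, and Ag 5 was the highest of all libraries. The difference of -0.47 was within the spread of the Ag libraries (two-sided exact permutation test, p = 0.143). Without Ag 4 the difference was -0.62 with an exact permutation p of 0.0238, and without Ag 5 it was -0.16 with an exact permutation p of 0.278. Per transcript length, it was -0.16 with an exact permutation p of 0.817. With Ag 1, Ag 3 and Ag 4 left out, it was -1.13 with an exact permutation p of 0.0476, the smallest that design allows.

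The groups also differed in which Taf15 transcript the counts fell on, although the main usage test described below did not call Taf15. Taf15-201, the full-length coding transcript of 2068 bases, took 63.6, 87.4, 66.4, 75.4 and 80.4% of the gene's counts in Ag 1 to 5 (74.6 ± 9.83%, SD, n = 5). In Ag+Costim 1 to 5 it took 95.1, 92.4, 96.8, 96.9 and 94.2% (95.1 ± 1.91%, SD, n = 5). Its share rose in Ag+Costim with no overlap between the groups. Taf15-204, annotated as a processed transcript without a coding sequence, took 32.4, 11.4, 31.6, 20.5 and 19.5% in Ag 1 to 5 (23.1 ± 8.88%, SD, n = 5). It took 4.11, 6.82, 2.34, 2.24 and 4.24% in Ag+Costim 1 to 5 (3.95 ± 1.86%, SD, n = 5). This share fell, and the lowest Ag library stood at 1.67 times the highest costimulated one. Both shares gave the smallest p that 5 against 5 libraries allow (two-sided exact permutation test, p = 0.00794, BH over the 11 shares tested 0.0291). They nearly mirror each other, and the 11 also hold the share of all Taf15 processed transcripts, which contains Taf15-204. These shares are therefore not separate results, and counting each of them lowers the adjusted p. Taf15-203, the other coding transcript, had 0 counts in every library, so the share on coding transcripts is that of Taf15-201. Of the transcripts tested, 1.46% had a share lower in Ag+Costim without overlap, and those with a higher share were not counted.

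Taf15-204 shares its first exons with Taf15-201 and runs on past the donor site of exon 7 (chr11:83488925-83489045) for 168 bases into intron 7, which is 8216 bases long. The 30 bases across that site are shown for both transcripts, because they are what tells the 2 apart. Lower case marks the last 15 bases of exon 7, and capitals mark the 15 bases that follow, which are exon 8 in Taf15-201 and intron 7 in Taf15-204.
Taf15-201: tatgacaggatcaagTGGTGGTGACCGCGG
Taf15-204: tatgacaggatcaagGTAAGTATTTAGATT
Neither AATAAA nor ATTAAA, the common polyadenylation hexamers, was found on the transcript strand in the last 60 bases of Taf15-204.

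The mean levels of the 2 transcripts differed in opposite directions, and these levels were not tested on their own. Taf15-201 was at 2.09, 5.16, 3.75, 3.88 and 2.35 CPM in Ag 1 to 5. In Ag+Costim 1 to 5 it was at 9.87, 8.58, 10.9, 9.83 and 9.25 CPM, a 2.81-fold ratio of means. Taf15-204 was at 1.07, 0.673, 1.79, 1.05 and 0.570 CPM in Ag 1 to 5 and at 0.426, 0.634, 0.262, 0.227 and 0.417 CPM in Ag+Costim 1 to 5, a ratio of 0.382. Its groups overlapped, with Ag 5 below Ag+Costim 2. In counts, Taf15-204 had 127 to 483 with antigen alone and 83 to 267 with costimulation, so each share rests on at least 83 estimated counts of this transcript.

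**Figure D2:**
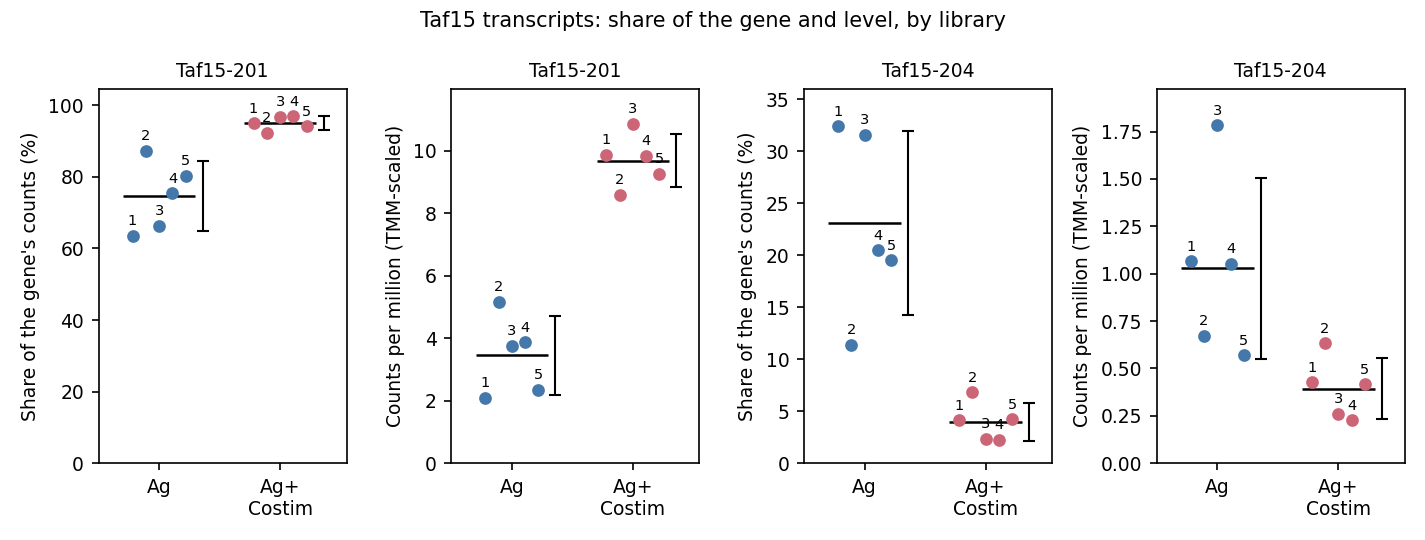
Share of the Taf15 counts in percent and TMM-scaled CPM (y axes, linear from 0) of the coding transcript Taf15-201 and the intron-reading transcript Taf15-204, with the 5 libraries of each group as numbered points, a line at the mean and a bar of ± 1 SD. Taf15-204 takes 11.4 to 32.4% in Ag and 2.24 to 6.82% in Ag+Costim.

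The count model of transcript usage did not call Taf15 in its main form. edgeR's diffSpliceDGE gave Taf15 a gene-level p of 0.0471 and a BH of 0.759 and called 0.297% of the 10441 genes tested. limma's diffSplice gave a BH of 0.00800 and called 1.39% of genes. edgeR with bias-adjusted deviances, added after the main result had been seen, gave a BH of 0.00866 and called 1.45%. With Ag 1, Ag 3 and Ag 4 left out, the share of Taf15-201 was 11.2 percentage points higher in Ag+Costim, against 20.4 with all libraries, and the exact permutation p of 0.0476 is the smallest that 2 against 5 libraries allow. Counts on noncoding transcripts of all protein-coding genes moved beside this result. Processed transcripts took 0.921, 0.60, 0.871, 0.867 and 0.623% of these counts in Ag 1 to 5 and 0.571 to 0.635% in Ag+Costim. Ag 2 and Ag 5 lay within the costimulated range on this measure, and their Taf15-204 shares lay above the costimulated range of that share. How far these measures are related was not tested. Ag 1, Ag 3 and Ag 4, in which the most genes had a count, also had the lowest shares of Taf15-201. Retained intron transcripts of Taf15 took between 0.0921 and 3.48% in Ag and between 0.460 and 1.37% in Ag+Costim (exact permutation p = 0.238).

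Ewsr1 counts fell mainly on 2 coding transcripts that differ by a block within the coding sequence. Ewsr1-203, with a coding sequence of 1965 bases, took 66.9, 91.0, 88.9, 67.3 and 93.5% of the counts in Ag 1 to 5 and 89.1, 83.1, 90.9, 89.3 and 78.0% in Ag+Costim 1 to 5. Ewsr1-202, with 1854 bases, took 29.2, 7.81, 9.79, 29.0 and 5.71% in Ag 1 to 5 and 9.0, 15.5, 7.90, 9.41 and 18.3% in Ag+Costim 1 to 5. Ag 1 and Ag 4 stood apart with more counts on Ewsr1-202, and the other libraries of both groups overlapped. The means of Ewsr1-202 were 16.3 ± 11.8% and 12.02 ± 4.59% (SD, n = 5 each), and the difference was not larger than the spread (exact permutation p = 0.437, BH 0.498). edgeR's usage test gave Ewsr1 a p of 0.418 and a BH of 1. Retained intron transcripts of all protein-coding genes took 5.56 and 5.36% of counts in Ag 1 and Ag 4, against 2.25 to 4.14% in the other libraries. Coding transcripts together took 97.0 to 99.6% of Ewsr1 counts in every library (exact permutation p = 0.341).

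The block that Ewsr1-202 lacks is 111 bases long, or 37 codons, and is made of 4 pieces whose splicing the PSI table follows one by one. The first is a 31-base extension of an exon at its donor end (chr11:5082253-5082283), then come exons of 35 bases (chr11:5079485-5079519) and 33 bases (chr11:5078920-5078952), and the last is a 12-base extension at an acceptor (chr11:5078580-5078591). The 2 extensions are shown because the choice of splice site decides them. Capitals mark the GT with which the first begins, and which follows the inner donor, and the AG with which the last ends, and which precedes the inner acceptor.
Ewsr1 donor extension: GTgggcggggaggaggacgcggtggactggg
Ewsr1 acceptor extension: gccttcctatAG
With all 4 pieces left out, the exons join at the sequence below, in which capitals mark the 15 bases after the block.
Ewsr1-202 junction: gaggcatgagcagagATCCCGATGAAGACT

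**Figure D3:**
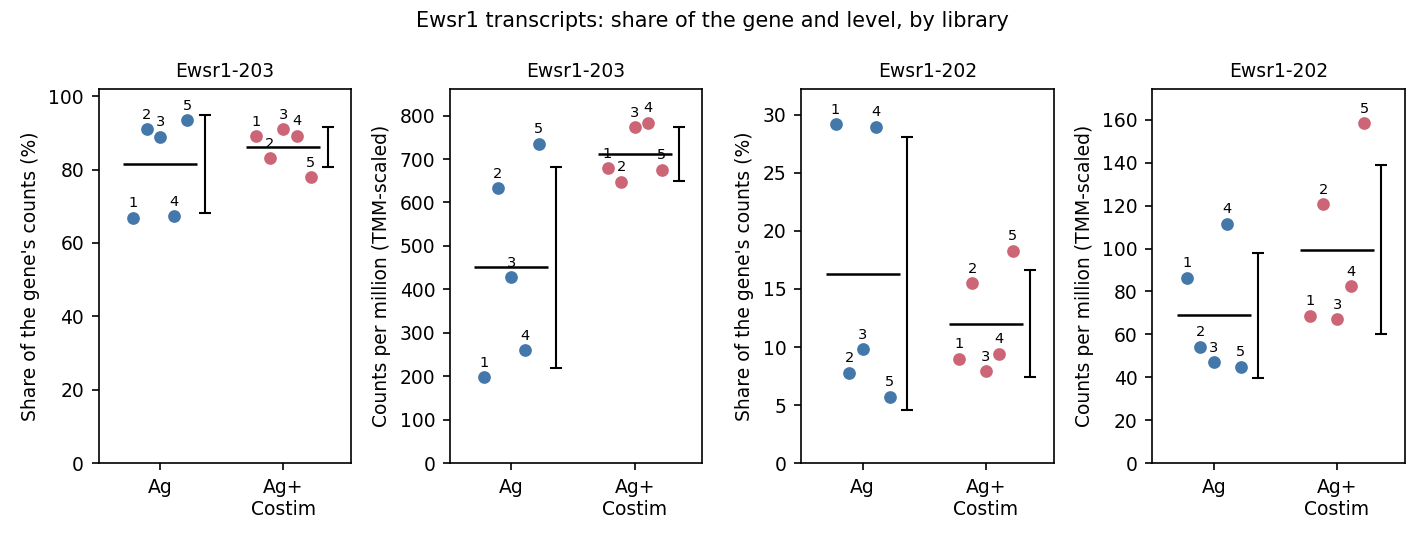
Share of the Ewsr1 counts in percent and TMM-scaled CPM (y axes, linear from 0) of the full coding transcript Ewsr1-203 and of Ewsr1-202, which lacks 111 coding bases, with the 5 libraries of each group as numbered points, a line at the mean and a bar of ± 1 SD. Ewsr1-202 takes 29.2 and 29.0% in Ag 1 and Ag 4 and at most 18.3% elsewhere.

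In the PSI table (percent spliced in, the share of transcripts that include a piece), the libraries of a group had been combined into 1 value, so these differences carry no replicate error and no test. Of the 27 Ewsr1 and 14 Taf15 events, 1 Ewsr1 event and 0 Taf15 events passed the study's thresholds of a Whippet probability over 0.9 and a PSI difference over 0.05, which 1.05% of all 138940 events passed. Inclusion of the 31-base donor extension of Ewsr1 was 72.0% in Ag and 59.7% in Ag+Costim. Inclusion of its 35-base exon was 68.8% in Ag and 58.4% in Ag+Costim. The 33-base exon differed less, with 77.4% and 73.9%. The 12-base acceptor extension went the other way, with 89.5% in Ag and 98.5% in Ag+Costim. None of these 4 passed both thresholds. The 4 values of a group are unlike, so the pieces were not included or skipped as 1 unit in this table. The 35-base exon and the donor extension add up to 66 bases, a whole number of codons, whereas neither is one alone.

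The 2 measures of this block ran in the same direction for one extension and not for the other. By PSI, the donor extension was left out of 28.0% of Ewsr1 transcripts in Ag and 40.3% in Ag+Costim. The acceptor extension was left out of 10.5% in Ag and 1.53% in Ag+Costim, and a transcript that lacks all 4 pieces lacks this one too. By transcript counts, Ewsr1-202 made up 16.8 ± 12.3% of the full-length forms without and 12.3 ± 4.81% with costimulation (SD, n = 5 each, exact permutation p = 0.429). In both groups this mean was larger than the share that lacks the acceptor extension by PSI, which a form without all 4 pieces cannot exceed. The counts on Ewsr1-202 are therefore not taken as the level of that form, and the reason was not tested. Ewsr1-202 is the 1 annotated full-length form that lacks the block, and forms that lack only some of the pieces have no transcript of their own in the count table. The other Ewsr1 core exons were included almost fully, and 12 of its 16 core exons were over 99% in both groups. An 18-base exon of Ewsr1-201 and Ewsr1-205 (chr11:5091460-5091477) was included in 0.155% and 0.0164%.

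Taf15 has a matching pair of short exons, and inclusion of its 35-base exon 8 (chr11:83497262-83497296) was higher in Ag+Costim, at 70.5% in Ag and 83.8% in Ag+Costim. That is the opposite direction to the 35-base exon of Ewsr1, again with no test. A transcript without it changes frame. The 35-base exons are shown together because they have the same length and place in both genes, with capitals where the bases are the same.
Ewsr1: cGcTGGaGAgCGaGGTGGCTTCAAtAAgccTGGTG
Taf15: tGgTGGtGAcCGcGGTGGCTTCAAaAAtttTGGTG
They share 26 of 35 bases (74.3%). The 33-base exons that follow (chr11:83497894-83497926 in Taf15) share 57.6%, and 130-base exons further on (chr11:5072812-5072941 and chr11:83501115-83501244), which lie in the RNA recognition motif, share 75.4%. The next largest Taf15 differences were exon 14 (chr11:83504428-83504516), at 94.2% in Ag and 99.3% in Ag+Costim, and exon 13 (chr11:83504246-83504327), at 94.7% and 99.4%. Inclusion was higher in Ag+Costim for 13 of the 14 Taf15 events, exon 6 being the exception with 98.9% and 98.6%. Over the whole table, 100025 of 138940 events had a higher PSI in Ag+Costim.

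**Figure D4:**
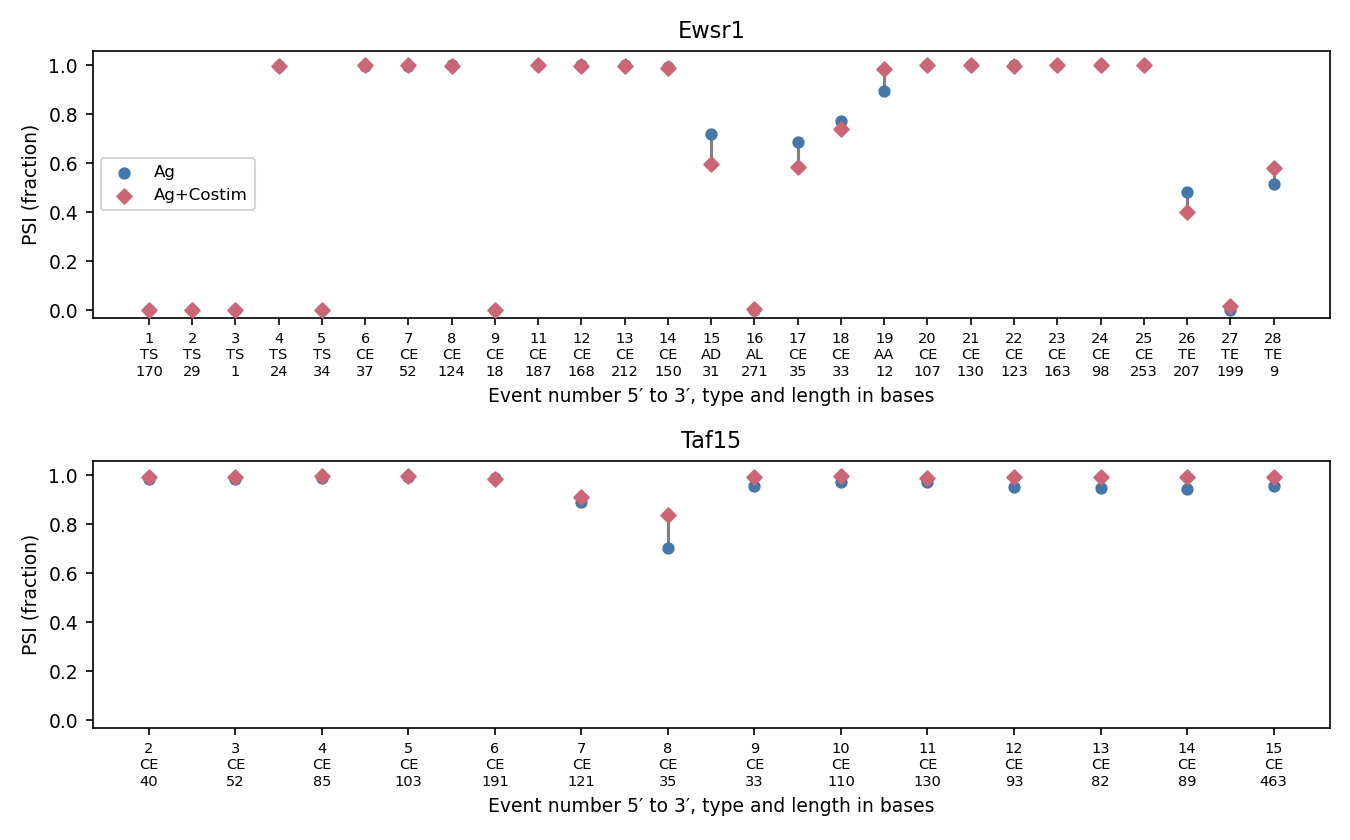
Percent spliced in as a fraction (y axes, 0 to 1) for the 27 Ewsr1 and 14 Taf15 events in order from the 5' to the 3' end (x axes, with event number, type and length in bases), as 1 combined value for Ag (circles) and 1 for Ag+Costim (diamonds). TS is a tandem start, CE a core exon, AD an alternative donor, AA an alternative acceptor, AL an alternative last exon and TE a tandem end. Ewsr1 events 15, 17, 18, 19, 26 and 28 and Taf15 events 7 and 8 lie apart from 0 and 1.

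The 1 event past the thresholds was a tandem 3' end of Ewsr1. Use of the proximal end at position 5069897 (segment chr11:5069897-5070103) was 48.2% in Ag and 40.3% in Ag+Costim. Use of the distal end at position 5069689 (segment chr11:5069689-5069697) went from 51.6% in Ag to 58.2% in Ag+Costim, a difference over 0.05 that did not pass the probability threshold. Use of an end at position 5069698 (segment chr11:5069698-5069896) was 0.242% in Ag and 1.61% in Ag+Costim. Transcripts that end at 5069689 also contain this segment, so these values do not give its presence. The bases before the proximal and distal ends are shown because they hold the signals for cleavage, with the polyadenylation hexamer in capitals.
Proximal end: ATTAAAacaagttaaatagta
Distal end: AATAAAattccaaatgtttataaactgt
The proximal end follows the variant hexamer ATTAAA by 21 bases and the distal end follows AATAAA by 28 bases, counted from the first base of the hexamer. In the transcript counts, the coding transcripts ending at 5069689 or 5069698 took 96.0 to 99.2% of Ewsr1 counts in Ag and 96.3 to 98.8% in Ag+Costim (exact permutation p = 0.897). Ewsr1-205, the 1 transcript annotated to end at the proximal site, took at most 0.00961%, and it also holds the rarely included 18-base exon.

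Truncated Ewsr1 transcripts were rare. Ewsr1-204, a coding transcript that ends in an alternative last exon (chr11:5080418-5080688), took 0.176 to 0.884% of counts in Ag and 0.473 to 2.26% in Ag+Costim (exact permutation p = 0.127, BH 0.262). Its level was between 1.11 and 2.94 CPM in Ag and between 3.69 and 19.6 CPM in Ag+Costim, a 4.09-fold ratio of means. How many of all transcripts had levels without overlap was not counted. The highest value was that of Ag+Costim 5, and the other 4 costimulated libraries reached at most 6.68 CPM. Its PSI was 0.181% in Ag and 0.391% in Ag+Costim. Ewsr1-201, which ends early at 5090459, took 0.0273 to 0.234% in Ag and 0.010 to 0.0415% in Ag+Costim (exact permutation p = 0.0238, BH over the 11 shares 0.0655).

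Genes whose products work with FET proteins, or have low-complexity domains as these do, had mostly positive fold changes. edgeR called 0 of the 72 genes of the 6 lists. The lists were written with earlier results of these data known. Of the genes at 10 CPM or more, 75.6% had a positive log2 fold change, as did 37.7% of all genes tested. Of all genes tested, 7.89% had a higher level with an unadjusted p under 0.05. The counts below stand beside these shares. Most list genes were at 10 CPM or more, and the share at such a p was not counted for genes of that level. Among the 16 TFIID subunits, 15 had a higher fitted level in Ag+Costim and 5 of these had an unadjusted p under 0.05. The median log2 fold change of the list was 0.28, beside 0.24 over the genes at 10 CPM or more and -0.32 over all genes tested. Taf2 was at 46.5 to 69.7 CPM in Ag and 80.8 to 94.4 CPM in Ag+Costim, with a log2 fold change of 0.68, an SE of 0.14 and a BH of 0.140 (edgeR). Taf1, the largest subunit, had 0.51 and a BH of 0.197. Taf10, the most abundant with Taf6, was at 81.8 to 200.9 CPM in Ag and 105 to 165 CPM in Ag+Costim. All 12 RNA polymerase II subunits had positive values with a median of 0.26, and 2 had an unadjusted p under 0.05. Polr2b was at 94.0 to 180.5 CPM in Ag and 218 to 264 CPM in Ag+Costim, with 0.78, an SE of 0.19 and a BH of 0.169. Polr2a, whose C-terminal domain FET proteins bind, had a log2 fold change of 0.43 and a BH of 0.227. Polr2e, the most abundant with Polr2b, had 0.26 and a BH of 0.541. The medians of these 2 lists lay near that of the genes at 10 CPM or more.

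The other lists had larger medians, between 0.54 and 0.62. Of 10 U1 snRNP and splice site factors, 9 had positive values and 7 had an unadjusted p under 0.05. As given above, 75.6% of the genes at 10 CPM or more had positive values, and 7.89% of all genes tested were higher at such a p. Snrnp70, the U1 70K protein, was at 83.0 to 139 CPM in Ag and 167 to 209 CPM in Ag+Costim, without overlap, with a log2 fold change of 0.74, an SE of 0.16 and a BH of 0.147 (edgeR). Sf1, the branch point binding protein, had 0.76 and a BH of 0.195, and the splicing regulator Srsf10 had 0.69 and a BH of 0.263. In the Drosha complex, which cuts primary microRNAs, 5 of 6 genes had positive values and 3 an unadjusted p under 0.05. Drosha itself was at 29.3 to 48.1 CPM in Ag and 58.4 to 82.7 CPM in Ag+Costim, with 0.88, an SE of 0.17 and a BH of 0.134. Ilf2 had 0.58 and a BH of 0.306, and the helicase Ddx5, the most abundant, had 0.19 and a BH of 0.471.

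All 9 genes of nuclear import and arginine methylation had positive values, and 6 had an unadjusted p under 0.05. Prmt1, the main arginine methyltransferase of FET proteins, was at 67.0 to 229 CPM in Ag and 199.7 to 231 CPM in Ag+Costim, with a log2 fold change of 0.76, an SE of 0.31 and a BH of 0.260 (edgeR). Its groups overlapped through Ag 5, as those of Ewsr1 did. Carm1 had 0.64 and a BH of 0.169, Prmt5 had 0.62 and a BH of 0.304, and the import receptor Tnpo3 had 0.63 and a BH of 0.189. All 19 other RNA-binding proteins with prion-like low-complexity domains had positive values, and 14 had an unadjusted p under 0.05. Beside the counts of both lists stand 75.6% of genes at 10 CPM or more with positive values. Of all genes tested, 7.89% were higher with an unadjusted p under 0.05, a share not counted for genes at 10 CPM or more. Hnrnpa2b1 was at 591 to 1780 CPM in Ag and 1962 to 2288 CPM in Ag+Costim, with 0.83, an SE of 0.29 and a BH of 0.244. Hnrnpu had 0.66 and a BH of 0.257, Hnrnpa0 had 0.58 and a BH of 0.172, and the paraspeckle protein Pspc1 had 0.92 and a BH of 0.194. DESeq2 called 17 of the 72 genes, all as higher in Ag+Costim, and weighted limma voom called 63, of which 62 were higher. Beside these stand 3.46% and 25.3% of all genes called as higher by these tools, shares not counted for genes at 10 CPM or more. Ewsr1 stood near the medians of these lists, and the log2 fold change of Taf15, 1.15, was larger than that of each of the 72 genes in the same edgeR fit. The mean level of Taf15 was below 10 CPM, unlike that of most of the 72. With Ag 1, Ag 3 and Ag 4 left out, edgeR called 14 of the 72, 8 as higher and 6 as lower, where 2752 of 25394 genes were called and 7.51% were called as higher.

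**Figure D5:**
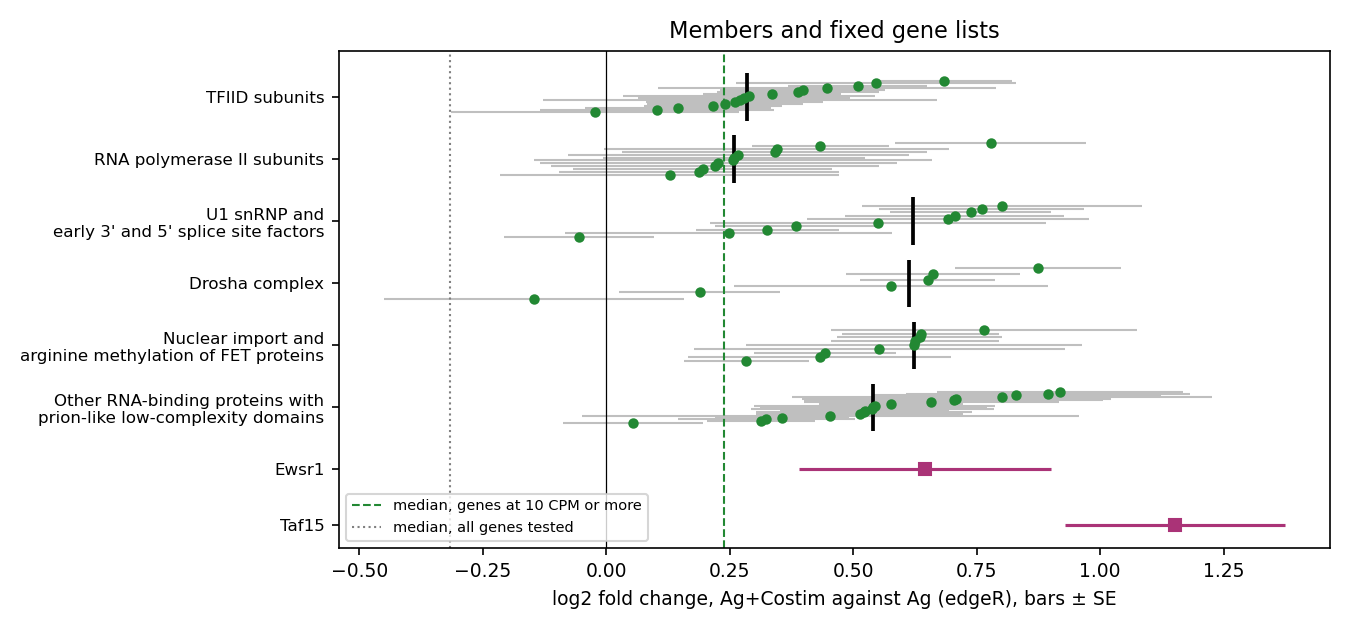
Fitted log2 fold change of Ag+Costim against Ag (x axis, edgeR, bars ± SE) for each gene of the 6 lists (circles, with a black line at the list's median) and for Ewsr1 and Taf15 (squares), with lines at the median of the genes at 10 CPM or more (dashed, 0.24) and of all genes tested (dotted, -0.32). Taf15 lies to the right of all 72 list genes, and Ewsr1 lies among them.

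The genes most like each member over the 10 libraries were named by the correlation of log2 CPM among genes at 10 CPM or more, as a description in which all points share libraries and scaling. The 3 most like Ewsr1 were Ptpa (r = 0.994), Ppp2r5d (r = 0.994) and Khdrbs1 (r = 0.994), compared over 8619 genes. Ptpa was at 85.5, 232, 144, 107 and 239 CPM in Ag 1 to 5 and 224 to 272 CPM in Ag+Costim, so it was also lowest in Ag 1 and Ag 4. Khdrbs1 is itself an RNA-binding protein that regulates splicing. The 3 most like Taf15 were Map4 (r = 0.977), Net1 (r = 0.975) and Bclaf1 (r = 0.973), compared over 8620 genes. Map4 was at 125, 145, 148, 142 and 108 CPM in Ag 1 to 5 and 189 to 207 CPM in Ag+Costim, with Ag 1 and Ag 5 lowest as for Taf15. The start of Ewsr1 overlaps Rhbdd3 (chr11:5098926-5106093, plus strand) by 341 bases, and the library kit does not keep strand, so reads there cannot be told apart. Rhbdd3 was at 6.01 to 20.4 CPM in Ag and 12.6 to 18.5 CPM in Ag+Costim, which is small beside Ewsr1. No other gene overlaps Ewsr1, and none overlaps Taf15.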

How the data were processed

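The authors aligned paired-end reads of SMART-Seq v4 and Nextera XT libraries, which do not keep strand, to mm10 with HISAT2 2.1.0, sorted them with SAMtools 1.9 and estimated counts with StringTie 2.1.0 (versions from the submitters' processing notes). The deposited expected counts, whole numbers per gene and transcript, had not been normalized. Gene counts were the sums over their transcripts, and 26345 entries outside the annotation (0.0458 to 0.308% of counts) were left out. The authors ran Whippet on the reads, and the deposited PSI is a fraction with 1 value per group. Whippet's probability, a deposited score, served only as a threshold. The table's other columns, the authors' own comparison, were not used. All libraries ran on lane 4.

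Genes were tested with edgeR 4.0.16 in R 4.3.3 (quasi-likelihood, filterByExpr, TMM) and Benjamini-Hochberg (BH) adjustment over 24262 genes, threshold 0.05. Transcript usage was tested with diffSpliceDGE (Simes BH under 0.05 and a share difference over 0.1). DESeq2 1.42.0 and limma 3.58.1 were alternatives, as were other scalings, no filter, each library left out and a replicate block. Scripts were tested on simulated data. Shares and ratios were compared with two-sided exact permutation tests, whose smallest p is 0.00794. Correlations used log2(CPM + 0.01). The members and lists were chosen with earlier results of these data known. By rule, the text names the members, their transcripts with 5% or more of counts, their events past the thresholds and 3 largest each, the 2 most abundant and 2 lowest-p genes of each list (marker lists are given as sums), 3 like genes each and overlapping genes. A gene that the rule names is not reported here. Ewsr1-201, Ewsr1-204 and Ewsr1-205, the pieces of the Ewsr1 block and the Taf15 exons beside these were named after their values were seen. Sequences are from the GENCODE M21 transcripts.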

Additional observations from a re-analysis of the deposited data

Results flagged for a closer look

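Ewsr1-204, the Ewsr1 transcript with an alternative last exon, stood out in Ag+Costim 5. It took 2.26% of the Ewsr1 counts there, and the next highest of the 5 costimulated libraries had 0.876%. Its level was 19.6 CPM there, and the next highest was 6.68 CPM. In both cases the gap to the next library was a larger part of the group's range (0.775 and 0.812) than Dixon's 95% critical value of 0.71 for 5 samples. The 2 values come from the same counts, and chance passes this limit in about 1 in 20 groups, of which 30 were examined. The cause was not tested.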

How the results depend on the processing

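The direction of the Taf15 gene level and of its coding share held under all alternatives run, with log2 fold changes of 0.87 to 1.54 and share differences of 17.7 to 32.6 percentage points, except that fewer libraries gave a share difference of 11.2. The Ewsr1 log2 fold change kept its sign over 0.19 to 1.15. Weighted limma voom called both genes (Ewsr1 1.15, Taf15 1.24) and 63 list genes, where it called 12311 of 24262 genes. DESeq2 called Taf15 (1.01) and 17 list genes, where it called 2933 of 21172 genes. edgeR called 0 list genes. With Ag 1, Ag 3 and Ag 4 left out, a choice made after seeing the data, Taf15 passed at 1.22. In that fit 14 list genes were called, where 2752 of 25394 genes were called. The ratio of Ewsr1 to Taf15 then differed by -1.13 (exact permutation p = 0.0476). The Ewsr1 differences turned, to -6.17 percentage points for the share of Ewsr1-203 and -0.27 for the Ewsr1 coding share. limma's diffSplice and bias-adjusted deviances called Taf15 usage at the same share difference of 20.4 points, where they called 1.39% and 1.45% of genes. A PSI difference over 0.1 left 0 events, against 1. Leaving out 1 library at a time gave log2 fold changes of 0.50 to 0.85 for Ewsr1 and 1.045 to 1.29 for Taf15, a ratio difference of -0.62 to -0.16, share differences of 0.89 to 7.54 for Ewsr1-203, 0.35 to 0.99 for the Ewsr1 coding share and 17.7 to 23.6 for Taf15-201, in both its tests, and 0 called list genes. The causes were not tested.

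Libraries of both groups share replicate numbers, but only 3 of 5 pairs deviated together by over 0.1 (correlations of -0.31 to 0.25), so the numbers were not taken as pairs. With the replicate number as a block, the log2 fold changes were 0.74 (Ewsr1) and 1.21 (Taf15), 0 genes were called, and the sign-flip test of the Taf15 coding share, a difference of 20.4 points, gave an exact p of 0.0625, the smallest that 5 pairs allow. The few counts of Taf15 and their origin in coverage limit the precision of its transcript shares, and no depth in reads is known.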
